A study of Mus musculus with 179 samples.

Results

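The ventral tegmental area (VTA) was set against the nucleus accumbens (NAc) in unstressed adult female mice, gene by gene, to describe which genes distinguish the origin of the midbrain dopamine projection from one of its main targets. All libraries labelled as female standard controls of either region were taken, 6 of VTA and 6 of NAc, which makes 12 of the 179 samples of the series. The mice were C57Bl6/j females reared under standard conditions (no early life stress) and held as adult controls (no adult stress), and both regions shared this strain, sex and history. Each library came from tissue punched from 1 mouse of the single female cohort and taken 24 h after behavioural testing, and the labels give no age beyond adult. Poly-A RNA was sequenced with an unstranded kit, so that reads of a gene and of an overlapping antisense gene cannot be told apart. The series asks how early life stress alters the response of the brain to a second stress in adulthood. A further 3 female groups of both regions served to see whether the regional differences were found elsewhere. They were mice with early life stress on postnatal days 10 to 20 followed by adult sub-threshold variable stress (ELS P10-20 STVS, 6 libraries per region), mice with the same early stress and no adult stress (ELS P10-20 control, 5 per region), and standard-reared mice with the adult stress (standard STVS, 5 per region). Female standard controls of the prefrontal cortex (PFC, 6 libraries) from the same deposited table give the level of a gene in a further forebrain region.

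The VTA holds dopamine neurons that make dopamine from tyrosine and load it into vesicles, intermingled with GABA and glutamate neurons and crossed by myelinated fibre tracts. Its dopamine axons end in the NAc, the ventral part of the striatum, where nearly all neurons are GABAergic spiny projection neurons that carry D1-type or D2-type dopamine receptors. The cell bodies, and with them most of the RNA, of the dopamine neurons lie in the VTA, while their target neurons lie in the NAc. The VTA derives from the embryonic midbrain floor and the NAc from the embryonic forebrain, and each lineage is laid down by its own transcription factors.

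Depth ran from 28.3 to 36.2 M reads assigned to genes in VTA libraries and from 24.1 to 36.5 M in NAc libraries. Levels are normalised reads, that is counts divided by 1 factor per library, and are not corrected for gene length, so they are compared between regions and not between genes. Within a region each library is a separate mouse, and the labels do not tie a VTA library to a NAc library of the same mouse. The first principal component of the 14000 genes tested held 90.6% of the variance and separated the 6 VTA from the 6 NAc libraries. Xist, the RNA of the inactive X chromosome, lay between 13467 and 17934 normalised reads in VTA and between 40913 and 57409 in NAc. Every library of either region thus held Xist, and its level was lower in VTA than in NAc (log2 fold change -1.65 ± 0.09 SE, limma adjusted p = 6.64e-10). The labels' defining markers were present. Slc6a3, the dopamine transporter, marked the VTA libraries, and Ppp1r1b, the spiny neuron phosphoprotein DARPP-32, marked the NAc libraries, without overlap in either gene.

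A few libraries stood apart within their region. VTA replicate 3 held 145 normalised reads of Ddx3y, a Y-linked helicase, against at most 0.933 in the other VTA libraries. The same library held 8281 normalised reads of Ttr, the main choroid plexus transcript, against at most 645 in the others, and the lowest Slc6a3 of its region. Its summed level of the 11 cortical excitatory neuron markers was 10788, against 5360 to 6688 in the other VTA libraries. Among NAc libraries, replicates 3 and 6 had the highest sums of those markers, 14801 and 17194, against 5172 to 9571 in the remaining NAc libraries and 80081 to 92120 in PFC. NAc replicate 5 held 192 normalised reads of Slc6a3, against at most 23.1 in the other NAc libraries. For NAc replicates 2, 4 and 6 the label for adult condition repeats the sex, so their titles gave the group.

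Of the 14000 genes tested, 5970 were higher in VTA (42.6%) and 5396 were lower in VTA (38.5%) at a limma adjusted p under 0.05, and 2634 did not pass. With a log2 fold change of at least 1 required as well, 1513 genes were higher in VTA (10.8%) and 1275 lower (9.11%). The median log2 fold change over all genes tested was 0.031. Every VTA library lay above every NAc library for 33.8% of genes, and every VTA library lay below every NAc library for 30.1%. Because most genes passed the plain test, a gene list is given below by its counts, its members past a log2 fold change of 1 and its median, to be read against these shares. Without VTA replicate 3, 5851 genes were higher and 5313 lower in VTA.

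**Figure D1:**
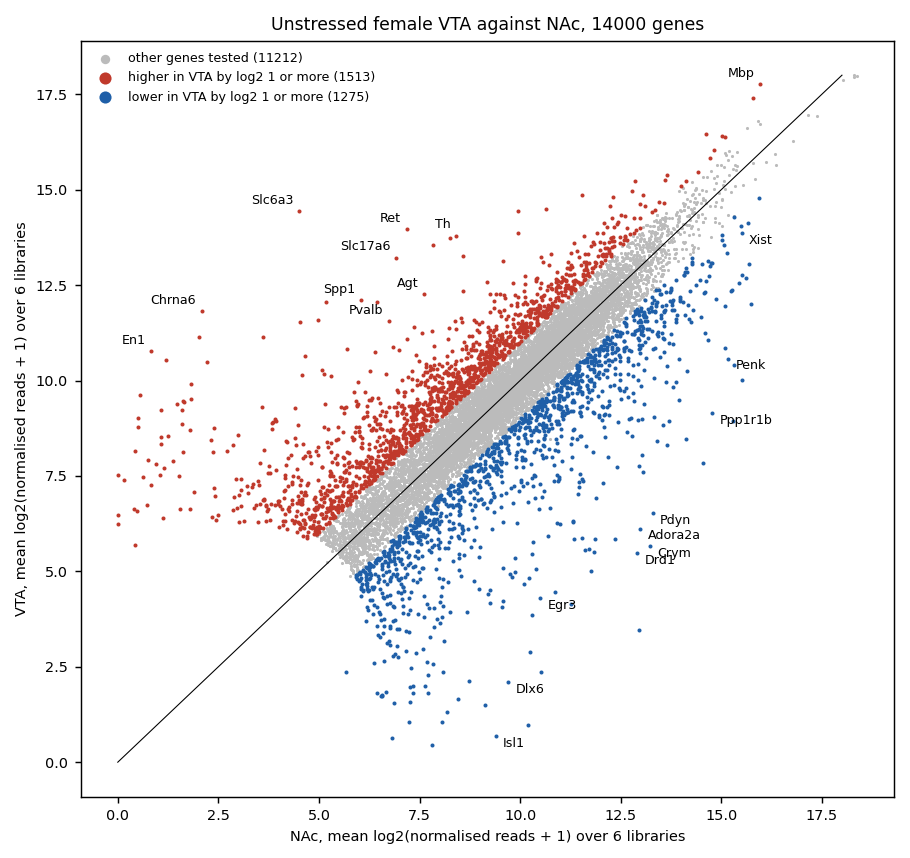
Mean log2(normalised reads + 1) of each of 14000 genes in 6 VTA libraries (vertical axis) against 6 NAc libraries (horizontal axis), with the line of equality. Red points mark the 1513 genes higher in VTA and blue points the 1275 lower in VTA at an adjusted p under 0.05 and a log2 fold change of at least 1. Dopamine genes such as Slc6a3 sit far above the line and striatal genes such as Drd1 far below it.

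The 15 genes of largest difference higher in VTA were mostly transcription factors and membrane proteins of midbrain and hindbrain neurons. They were En1, Slc6a3, Chrna6, C130021I20Rik, Chrnb3, Foxa1, Foxa2, Gata3, Slc6a4, Pou4f1, Glra1, Lmx1b, Slc6a5, Pax7 and Cnpy1, with log2 fold changes between 9.95 (En1) and 7.70 (Cnpy1). En1, a homeodomain factor of the midbrain, had between 1037 and 2313 normalised reads in VTA (median 1928), against 0 to 13.8 in NAc (median 0). Foxa1 and Foxa2, forkhead factors of the midbrain floor plate, had medians of 937 and 563 in VTA, against 0 for both in NAc. The VTA and NAc ranges did not overlap for any of the 15, a property that the choice of these genes required. Where a region held a gene at or near 0, the fold change depends on the 1 added before the logarithm. C130021I20Rik overlaps Lmx1b by 16 bases on chromosome 2 (GRCm38), so the unstranded reads of the pair cannot be fully assigned.

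Among the 15 genes of largest difference in the other direction were Gm1337, Sh3rf2, Isl1, Krt9, Dlx6, Dlx5, Crym, Drd1, Dlx6os1, Dsg1c, 3110039M20Rik, Adora2a, Dlx2 and Pdyn, with log2 fold changes between -9.48 (Gm1337) and -6.77 (Pdyn). Isl1, a LIM homeodomain factor of developing striatal neurons, had between 0 and 2.55 normalised reads in VTA, against 574 to 780.2 in NAc. Crym, which encodes a thyroid hormone-binding protein, had a VTA median of 30.5 and a NAc median of 9379. The highest Crym value in VTA, 660.0, was in replicate 3, and without that library its log2 fold change was -8.32 in place of -7.58. Krt9, a keratin, had 0.933 to 13.7 normalised reads in VTA, against 1015 to 1746 in NAc. Several of these genes are neighbours on the chromosome. Dlx5 and Dlx6 lie 9.8 kb apart on chromosome 6. Dlx6os1 spans Dlx6 and reaches beyond it, so reads of the stretch they share cannot be told apart. In the VTA set, the nicotinic subunit genes Chrna6 and Chrnb3 lie 3.5 kb apart on chromosome 8.

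Few genes met a strict rule for a near on or off pattern, which 1 library can break. Only 8 genes of the table had at least 100 normalised reads in every VTA library and at most 5 in every NAc library: Lmx1b, Pou4f1, Gata3, Otp, Ghsr, Dao, Sox14 and Pax5. Of these, Ghsr encodes the ghrelin receptor and had 163 to 581 normalised reads in VTA, against 0 to 3.04 in NAc. Dao, the D-amino acid oxidase that degrades D-serine, had 172 to 343 in VTA, against 0.805 to 4.06 in NAc. In the opposite direction 7 genes qualified, among them Sh3rf2, Isl1, Asb11, Gm10083 and Mei1 and 2 genes without a symbol. Sh3rf2 had 0 to 3.15 normalised reads in VTA, against 955 to 1337 in NAc. Some genes missed the rule by their highest library. En1, Foxa1 and Foxa2 had NAc medians of 0 but highest NAc values of 13.8, 8.85 and 6.88. Dlx2 and 3110039M20Rik had VTA medians of 1.40 and 0.85 but 13.7 and 17.9 in VTA replicate 3.

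Genes for dopamine synthesis and transport were higher in VTA. Of 10 genes, all tested, 9 were higher and 1 lower, 7 of the 9 by a log2 fold change of at least 1, with a median of 3.02. Th, tyrosine hydroxylase and the rate-limiting enzyme of dopamine synthesis, had between 4947 and 25578 normalised reads in VTA (median 17970.2), against 276 to 443 in NAc (median 320.0), a log2 fold change of 5.40 ± 0.36 (SE, adjusted p = 4.25e-08). The lowest VTA library held more Th than the highest NAc library by a wide margin. Ddc, which turns L-DOPA into dopamine, had a median of 11392 in VTA and 383 in NAc. Slc18a2, the vesicular monoamine transporter, had 5661 to 20199 normalised reads in VTA, against 197 to 293 in NAc (log2 fold change 5.72 ± 0.27). Slc6a3 showed the widest gap, with 7649 to 46354 normalised reads in VTA (median 26813), against 4.83 to 192 in NAc (median 18.3). Its log2 fold change was 9.93 ± 0.75 (adjusted p = 1.49e-07), and 10.24 without VTA replicate 3. The cofactor enzyme Gch1 was higher by 5.04, while Pts, a later enzyme of the same cofactor pathway, differed by 0.15 only, with overlapping ranges. Of the degrading enzymes, Maoa and Maob were higher in VTA by 1.17 and 0.64.

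The promoters of Th and Slc18a2 are shown because both genes rose together in VTA and both windows hold the full palindromic cyclic AMP response element, TGACGTCA, in capitals. The Ddc window is shown for its match to AAAGGTCA, the NBRE, the binding letters of nuclear receptors of the Nr4a family, one of which, Nr4a2, belongs to the dopamine identity genes. The Tac1 window stands for the genes lower in VTA and holds TAATTA, the core letters of many homeodomain factors, among them the Dlx family. All 4 are RefSeq windows on GRCm38.p6, 250 bases before to 50 bases after the annotated start, at chr7:142899946-142900245 (minus strand), chr19:59260628-59260927 (plus strand), chr11:11898095-11898394 (minus strand, the first listed of 2 starts) and chr6:7554811-7555110 (plus strand).
Th: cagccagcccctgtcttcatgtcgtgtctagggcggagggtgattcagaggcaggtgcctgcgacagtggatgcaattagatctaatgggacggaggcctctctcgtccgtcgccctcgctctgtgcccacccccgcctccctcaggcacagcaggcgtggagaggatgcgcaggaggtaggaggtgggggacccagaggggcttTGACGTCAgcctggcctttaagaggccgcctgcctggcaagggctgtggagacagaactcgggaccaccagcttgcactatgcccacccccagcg
Slc18a2: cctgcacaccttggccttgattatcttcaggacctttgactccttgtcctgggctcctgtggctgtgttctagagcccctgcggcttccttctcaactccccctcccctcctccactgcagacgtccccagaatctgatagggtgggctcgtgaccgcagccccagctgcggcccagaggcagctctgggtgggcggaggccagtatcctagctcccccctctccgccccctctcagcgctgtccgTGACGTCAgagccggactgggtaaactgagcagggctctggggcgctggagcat
Ddc: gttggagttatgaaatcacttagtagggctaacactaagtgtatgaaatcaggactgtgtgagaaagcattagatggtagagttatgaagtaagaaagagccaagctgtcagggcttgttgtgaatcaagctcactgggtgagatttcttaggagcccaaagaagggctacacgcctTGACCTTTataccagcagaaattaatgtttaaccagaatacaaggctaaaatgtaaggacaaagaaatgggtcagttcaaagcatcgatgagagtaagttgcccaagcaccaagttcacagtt
Tac1: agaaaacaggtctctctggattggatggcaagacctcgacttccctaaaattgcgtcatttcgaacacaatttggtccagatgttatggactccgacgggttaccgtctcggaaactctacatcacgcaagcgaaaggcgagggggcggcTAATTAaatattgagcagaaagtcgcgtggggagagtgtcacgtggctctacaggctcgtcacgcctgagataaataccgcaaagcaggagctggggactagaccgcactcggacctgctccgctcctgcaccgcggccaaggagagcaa

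The element began 45 bases before the start in Th and 4 bases before it in Slc18a2. Both strands were searched, and 2 of the 9 listed promoters of the dopamine synthesis list held it, against 1.79% of all 32851 promoters. It was in 0 of 19 promoters of the dopamine identity list and in 2 of 15 of the immediate early gene list, whose genes were mostly lower in VTA. The NBRE letters were found in 1 of those 9 promoters (Ddc) and in 1.51% of all. TAATTA was found in 1 of 11 promoters of the direct pathway list (Tac1), in 3 of 20 of the forebrain factor list (Emx2, Sp8 and Tbr1), in 1 of 35 of the shared spiny neuron list, in 2 of 19 of the dopamine identity list (both of Otx2) and in 5.29% of all. RefSeq promoters were matched for 326 of the 438 listed genes, and a match is a description of these letters only.

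Genes of dopamine neuron identity were all higher in VTA, 17 of 17, each by a log2 fold change of at least 1 and with a median of 6.62. Among the transcription factors, Lmx1a and Lmx1b, LIM homeodomain factors that specify midbrain dopamine neurons, had log2 fold changes of 7.17 and 7.85. Pitx3, a homeodomain factor needed by dopamine neurons, had 62.0 to 329.6 normalised reads in VTA, against 0 to 3.93 in NAc. Nr4a2, the nuclear receptor Nurr1, had a VTA median of 1993 and a NAc median of 219.7, a smaller difference of 3.25 ± 0.69 (adjusted p = 0.00101). Otx2, a midbrain factor, was higher by 3.25. Among the effector genes, Ret, the receptor for the trophic factor GDNF, had 7878 to 25516 normalised reads in VTA, against 97.6 to 239.9 in NAc (log2 fold change 6.79 ± 0.30). Aldh1a1, which oxidises retinal and dopamine aldehydes, was higher by 5.47, and Sncg, gamma-synuclein, by 6.62. Dlk1, a Notch-family ligand, was the member with the smallest difference, 1.42 ± 0.30, and its highest NAc library (7259.9) lay above its lowest VTA library (6645). The summed level of the 17 genes varied among VTA libraries, from 35479 in replicate 3 to 99215 in replicate 2, against 4616 to 8905 in NAc. In such bulk tissue, fewer cells of a type and less RNA per cell cannot be told apart.

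**Figure D2:**
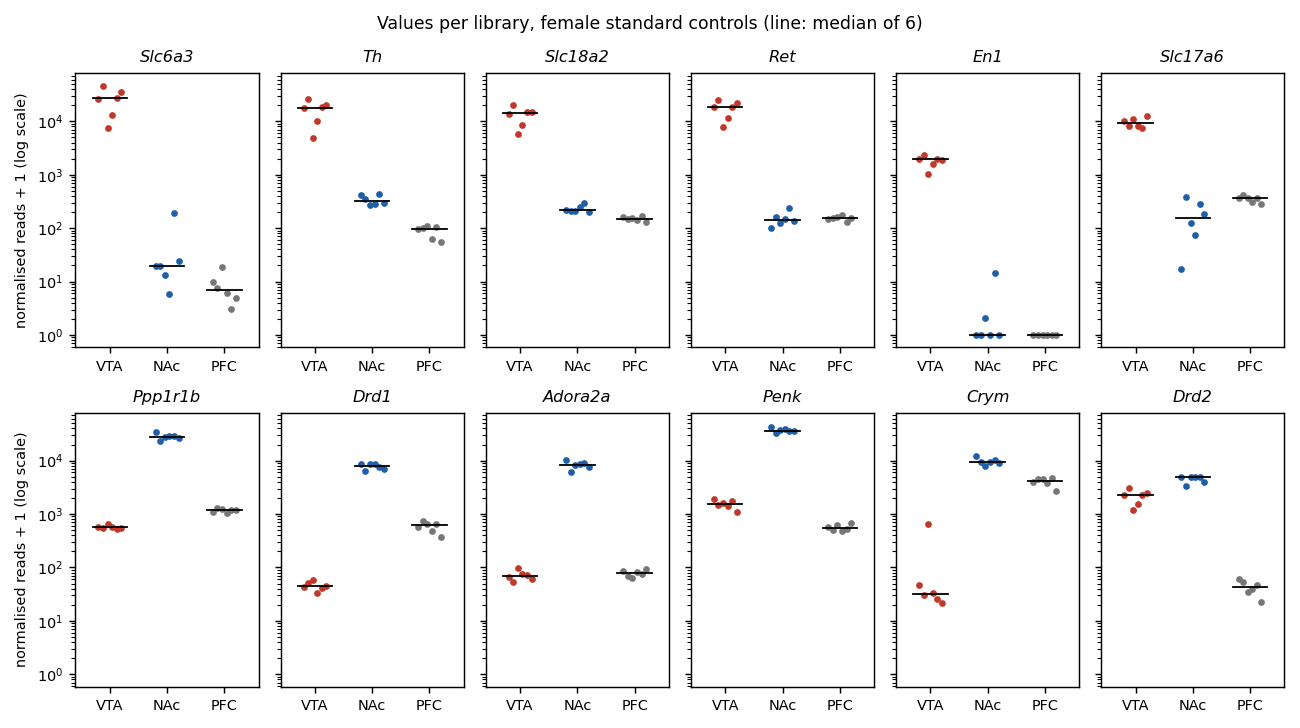
Normalised reads + 1 of 12 genes on a log scale in each library of VTA, NAc and PFC (6 each, line at the median). The VTA and NAc points do not overlap in any of the 12 genes. VTA replicate 3 is the lowest VTA point for Slc6a3, Th and Ret and the highest for Crym, and NAc replicate 5 is the highest NAc point for Slc6a3 and En1.

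Markers of nuclei that adjoin the VTA were also present in the VTA libraries. Of 20 such genes 15 were tested, 14 were higher and 1 lower in VTA, each by a log2 fold change of at least 1, with a median of 6.91. Serotonin neuron genes were among them. Tph2, the serotonin synthesis enzyme of the brain, had 848 to 3779 normalised reads in VTA, against 6.10 to 40.3 in NAc. Slc6a4, the serotonin transporter, had 545 to 2697 in VTA, against 1.22 to 25.6 in NAc. Fev, the factor Pet-1 of serotonin neurons, had 24.2 to 143 in VTA and was 0 in every NAc library. Gata3, Tal1 and Sox14, factors of midbrain and hindbrain GABA neurons, were higher in VTA by 8.28, 3.67 and 7.23. Pou4f1, a factor of habenular and red nucleus neurons, was higher by 8.17, and Lhx1 and Lhx5, LIM homeodomain factors, by 7.25 and 6.90. The member lower in VTA was Nkx2-1, a factor of the hypothalamus that also marks forebrain interneurons, with 1.85 to 10.8 normalised reads in VTA, against 156 to 332 in NAc. Foxb1, Sim1, Barhl1, Hcrt and Pmch had too low a mean to be tested. How far neurons of such neighbours, rather than of the VTA itself, carry any gene that was higher in VTA was not tested.

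Genes shared by spiny projection neurons of both pathways were lower in VTA. All 20 were lower by a log2 fold change of at least 1, with a median of -4.05. Ppp1r1b had 533 to 655 normalised reads in VTA (median 559), against 23427 to 34821 in NAc (median 28017), a log2 fold change of -5.63 ± 0.08 (adjusted p = 3.01e-15). Gng7 and Adcy5, which couple D1 and adenosine receptors to cyclic AMP, were lower, with log2 fold changes of -4.91 and -2.87. The smallest difference was that of Scn4b, a sodium channel beta subunit, with 4247 to 12299.6 in VTA, against 19982 to 31547 in NAc (log2 fold change -1.70). None of the 20 genes overlapped between the regions.

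Direct pathway genes, those of D1-type neurons, were lower in VTA in 7 of 9 cases, 6 of them by a log2 fold change of at least 1, with a median of -4.77. Drd1, the D1 receptor, had 31.5 to 57.8 normalised reads in VTA, against 6351 to 8600.2 in NAc (-7.43 ± 0.13). Pdyn and Tac1, the precursors of dynorphin and substance P, were lower, with log2 fold changes of -6.77 and -5.21. Ebf1, a factor of developing D1 neurons, went the other way by 0.39 (adjusted p = 0.0372) with overlapping ranges, and it did not pass under 11 of 22 alternatives, among them quantile normalisation, edgeR and 7 of the 12 single-library omissions. Sfxn1 had a log2 fold change of -0.10 and did not pass (adjusted p = 0.0812). It passed in edgeR (-0.13, adjusted p = 0.039) and without VTA replicate 2 (adjusted p = 0.0297) or 5 (adjusted p = 0.0486). Indirect pathway genes, those of D2-type neurons, were lower in VTA in 7 of 7 cases, 6 of them by a log2 fold change of at least 1, with a median of -3.66. Adora2a, the adenosine receptor of D2-type neurons, had 52.9 to 94.6 normalised reads in VTA, against 6007 to 10284 in NAc. Penk, the enkephalin precursor, had 1075 to 1950.0 in VTA, against 32330.1 to 41899.6 in NAc. Drd2, the D2 receptor that dopamine neurons carry as an autoreceptor, differed least among the called genes of log2 1 or more, with 1165 to 3116 in VTA, against 3372 to 4960.5 in NAc (-1.13 ± 0.22, adjusted p = 4.00e-04), and a PFC median of 41.8.

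Forebrain patterning factors were lower in VTA. Of 19 genes found, 17 were tested, 14 were lower, 13 of them by a log2 fold change of at least 1, none was higher, and the median was -4.99. Six3 and Lhx6, factors of the ventral forebrain and its interneurons, were lower, with log2 fold changes of -4.99 and -5.35, and Six3 had a PFC median of 0.972. Neurod2 and Neurod6, which mark cortical excitatory neurons, were tested and did not pass. In edgeR 16 of the 17 were lower, and Neurod2 passed (-1.99, adjusted p = 0.0467).

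Cortical excitatory neuron markers varied widely among NAc libraries. Of 11 genes 10 were tested, 2 were higher and 4 lower in VTA, 1 and 3 of them by a log2 fold change of at least 1, with a median of -1.16. In edgeR 2 were higher and 7 lower. Slc17a7, the vesicular glutamate transporter of cortical neurons, ran from 143 to 3419 normalised reads in VTA, against 109 to 10509 in NAc and a PFC median of 55809. The ranges overlapped, and the log2 fold change of -2.27 ± 1.24 did not pass (adjusted p = 0.111). Without VTA replicate 3, which held the 3419, it was -2.92 and passed (adjusted p = 0.0408). It also passed without NAc replicate 1 (-3.07, adjusted p = 0.0207) and in edgeR on all 12 libraries (-2.50, adjusted p = 0.0365). Tbr1, a factor of deep cortical neurons, had 16.1 to 109 in VTA, against 20.7 to 1127 in NAc. Nrn1, neuritin, and Cux2 were the members higher in VTA, by 4.04 and 0.88.

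The genes that differed most between libraries of 1 region, among those called higher there by a log2 fold change of at least 1, were taken by their standard deviation on the log2 scale. In VTA they were Ucn, Ttr, Chrna2, Pax7, Slc6a5, Lmx1a, Slc6a3 and Gucy2c. Ucn, the peptide urocortin of the Edinger-Westphal nucleus, had 775 and 788 normalised reads in VTA replicates 1 and 5 and 14.7 to 60.9 in the other 4. Slc6a5, the neuronal glycine transporter, had 3351 in VTA replicate 4 and 231 to 987 in the others. Gucy2c, the receptor guanylyl cyclase C that dopamine neurons carry, was lowest in replicate 3 and highest in replicate 2, as were Slc6a3 and Lmx1a. Tph2 and Slc6a4 took a different order, being lowest in replicates 6 and 2, where Slc6a3 was highest. The call of Ttr was lost when any of 6 of the 12 libraries was left out. Without VTA replicate 3 its log2 fold change was 2.46 and no longer passed (adjusted p = 0.0547), against 3.31 (adjusted p = 0.0299) with it. In NAc the 8 genes were Tbr1, Cplx3, Hs3st2, Dsg1c, Npy2r, Cd163, Stard5 and Onecut2. Tbr1, Cplx3 (a complexin of synapses) and Hs3st2 (a heparan sulphate sulphotransferase) were highest in NAc replicates 3 and 6, the libraries with the most Slc17a7. Npy2r, a neuropeptide Y receptor, was highest in replicates 2 and 1, where Dsg1c, Stard5, Cd163 and Onecut2 were lowest. The call of Hs3st2 was lost without the filter on low values and without NAc replicate 3 or 6 or VTA replicate 2, 5 or 6. Its adjusted p in those fits ran from 0.0501 to 0.0574, and without NAc replicate 6 its log2 fold change was -0.79. Without the 3 NAc libraries whose adult label repeats the sex, Tbr1, Chrna2 and Ttr lost their calls (adjusted p = 0.0525, 0.0617 and 0.299).

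**Figure D3:**
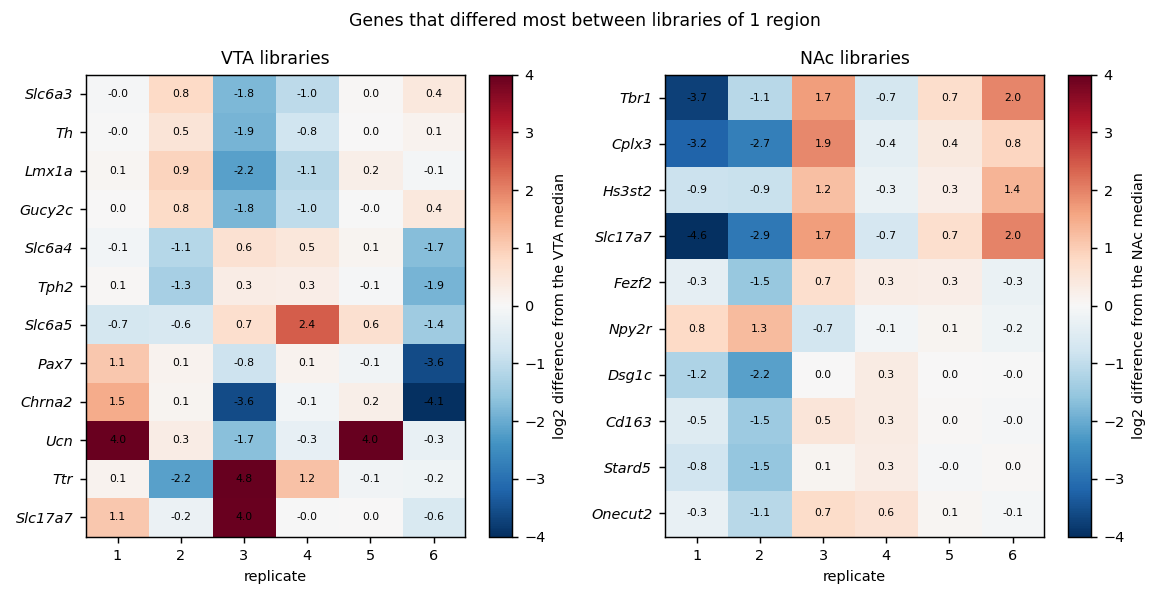
Log2 difference of each library from the median of its region for 12 genes in 6 VTA libraries (left) and 10 genes in 6 NAc libraries (right), among them the 8 per region of largest standard deviation. In VTA, replicate 3 is low for Slc6a3, Th, Lmx1a and Gucy2c and high for Ttr and Slc17a7. In NAc, replicates 3 and 6 are high for Tbr1, Hs3st2 and Slc17a7.

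Of 10 transmitter genes 4 were higher and 4 lower in VTA, 3 of the higher and 0 of the lower by a log2 fold change of at least 1, with a median of -0.48. Slc17a6, the vesicular glutamate transporter of subcortical neurons, had 7582 to 12651 normalised reads in VTA, against 15.9 to 380.4 in NAc (log2 fold change 6.30 ± 0.64). Slc6a5 was higher by 7.81, and Slc6a9, the glial glycine transporter, by 2.31. The GABA synthesis enzymes Gad1 and Gad2 and the vesicular GABA transporter Slc32a1 were lower in VTA, with log2 fold changes of -0.86, -0.98 and -0.64, without overlap. Slc17a8, the third vesicular glutamate transporter, had a VTA median of 213 and a NAc median of 460.0 and did not pass (adjusted p = 0.0616).

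Neuropeptide precursors split, with 5 of 18 tested genes higher and 9 lower in VTA, 5 and 7 of them by a log2 fold change of at least 1, and a median of -0.65. Besides the opioid and tachykinin precursors named above, Npy and Sst, the precursors of neuropeptide Y and somatostatin, were lower in VTA, with log2 fold changes of -4.84 and -1.47. Higher in VTA were Grp (gastrin-releasing peptide, 5.45), Adcyap1 (the precursor of PACAP, 4.83), Pnoc (nociceptin, 3.37), Ucn and Cck (cholecystokinin, 1.39). Cck, which many dopamine neurons contain, had 1075 to 2067 normalised reads in VTA, against 183 to 2121 in NAc, so that its ranges overlapped (adjusted p = 0.0415). Its call was lost under 12 of 22 alternatives, among them edgeR (adjusted p = 0.124), the replicate block (adjusted p = 0.0806) and 8 of the 12 single-library omissions. Cartpt, the precursor of CART, had 7259.6 and 6116 normalised reads in VTA replicates 1 and 5, the same libraries that were high in Ucn, and 163 to 499.8 in the other VTA libraries. Its NAc libraries held 1195 to 2382, and the difference did not pass (adjusted p = 0.288).

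Interneuron markers of the striatum divided by type. Of 10 tested genes 6 were lower and 2 higher in VTA, 5 and 2 of them by a log2 fold change of at least 1, with a median of -1.35. Chat and Slc5a7, which mark cholinergic neurons, were lower, with log2 fold changes of -3.61 and -3.46, with their highest VTA values, 265 and 762, both in replicate 3. Pvalb and Calb2, the calcium-binding proteins parvalbumin and calretinin, were the members higher in VTA, by 4.82 and 3.76, and both are known also from midbrain neurons. Nos1, of the nitric oxide synthase interneurons, did not pass (adjusted p = 0.223).

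Dopamine receptors and their signalling partners were lower in VTA, 12 of 13 tested, 10 by a log2 fold change of at least 1, with a median of -1.95. Drd3, the D3 receptor that is enriched in the ventral striatum, had 12.5 to 22.1 normalised reads in VTA, against 189.7 to 328 in NAc and 0 as the PFC median. Drd5 was lower (log2 fold change -0.60) with overlapping ranges. Kcnj6, the potassium channel GIRK2 through which D2 autoreceptors act in dopamine neurons, was the member higher in VTA, with 349.6 to 883, against 30.5 to 164 in NAc (2.98 ± 0.40).

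Nicotinic receptor subunits were higher in VTA and the striatal muscarinic receptors lower. Of 13 tested genes 11 were higher, 10 by a log2 fold change of at least 1, and 2 were lower, with a median of 1.99. Chrna6 and Chrnb3, subunits of the receptors of dopamine neurons, had 1308 to 7058 and 799 to 4037 normalised reads in VTA, against 0 to 37.4 and 0 to 27.5 in NAc. Chrna4 and Chrna5 were higher by 3.41 and 5.57, and the widely used Chrnb2 by 0.78. Chrna5 and Chrna3 overlap on chromosome 9, so their reads cannot be fully assigned. Chrm1 and Chrm4, the muscarinic receptors of spiny neurons, were the 2 lower genes, with log2 fold changes of -4.65 and -4.77. Chrm5, the muscarinic receptor of dopamine neurons, was higher by 1.98, with 163 to 514 in VTA, against 53.0 to 185 in NAc.

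Of 18 ionotropic glutamate receptor subunits 11 were lower and 6 higher in VTA, but past a log2 fold change of 1 the split was even, with 5 lower and 5 higher, and the median was -0.595. Of 7 metabotropic receptors 4 were lower and 3 higher, 4 and 1 of them by a log2 fold change of at least 1, with a median of -1.32. Gria2, an AMPA receptor subunit, was lower, with a log2 fold change of -1.70. Grin2b, an NMDA receptor subunit, was lower too, with 3490.3 to 5137 normalised reads in VTA, against 13906 to 19930.3 in NAc. Grin2d, Grin3a and Gria4 were higher, by 1.91, 1.33 and 1.21. Grm5, the receptor mGluR5 that spiny neurons carry, had 2653 to 3681 normalised reads in VTA, against 13302 to 17201 in NAc (-2.26 ± 0.07). Grm8 was higher by 1.71.

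Inhibitory receptor subunits differed by composition rather than in 1 direction, with 10 of 18 tested higher and 7 lower in VTA, 6 and 5 of them by a log2 fold change of at least 1, and a median of 0.55. Gabrq, the theta subunit, was higher, with 879 to 1493 normalised reads in VTA, against 38.5 to 566 in NAc, while Gabra4 and Gabrd were lower. Gabrd, the delta subunit of extrasynaptic receptors, had 12.5 to 74.6 normalised reads in VTA, against 2777 to 3897 in NAc (-6.75 ± 0.38). Glra1, the adult glycine receptor subunit, had 647 to 1241 in VTA, against 0 to 11.8 in NAc, and Glra3 and Glrb were higher by 3.62 and 1.14.

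Of 9 opioid and cannabinoid genes 3 were higher and 5 lower in VTA, 3 and 2 of them by a log2 fold change of at least 1, with a median of -0.335. Oprm1 and Oprk1, the mu and kappa receptors, were lower, with log2 fold changes of -0.34 and -0.63 with overlapping ranges. The call of Oprk1 was lost under the replicate block (adjusted p = 0.071), without the 3 NAc libraries whose adult label repeats the sex (adjusted p = 0.0609) and without VTA replicate 4 (adjusted p = 0.0508). That of Oprm1 was lost in the fit over 44 libraries (adjusted p = 0.123) and without those 3 NAc libraries (adjusted p = 0.068). Oprl1, the nociceptin receptor, was higher by 1.22. Mgll, which degrades the endocannabinoid 2-AG, was lower, with a log2 fold change of -2.18. Of 11 serotonin receptors 3 were higher and 7 lower in VTA, 2 and 5 of them by a log2 fold change of at least 1, with a median of -0.43. Htr7 and Htr1a were higher by 1.98 and 1.66, and Htr6 and Htr1b were lower, with log2 fold changes of -2.49 and -1.82.

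Neurofilament and axon genes were higher in VTA in 9 of 10 cases, all 9 by a log2 fold change of at least 1, with a median of 2.22. Nefh, the heavy neurofilament, had 12114 to 30658 normalised reads in VTA, against 629.6 to 1302 in NAc (4.48 ± 0.26). Nefm and Nefl, the other 2 chains, were higher by 3.32 and 2.49. Gap43, a growth cone protein, did not pass (0.21, adjusted p = 0.0533). It passed without VTA replicate 3 (0.27, adjusted p = 0.00727), VTA replicate 4 (adjusted p = 0.0377) or NAc replicate 2 (adjusted p = 0.0454). It also passed with the replicate block (adjusted p = 0.00797) and in the fit over 44 libraries (adjusted p = 0.0248). Of 11 genes of perineuronal nets and matrix 6 were higher and 2 lower in VTA, 5 and 1 of them by a log2 fold change of at least 1, with a median of 0.16. Spp1, osteopontin, was higher by 6.06, Hapln4 and Acan, the link protein and core proteoglycan of nets, by 3.02 and 2.55, and Ncan, neurocan, was lower, with a log2 fold change of -1.19.

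Channels of firing divided almost evenly, with 13 of 28 higher and 12 lower in VTA, 11 and 9 of them by a log2 fold change of at least 1, and a median of -0.01. Higher were Kcnc2 (2.73), a subunit of fast Kv3 channels, and the pacemaker channels Hcn4 and Hcn2 (2.43 and 1.83). Lower were Kcnj4 (-6.53), an inward rectifier of spiny neurons, and Kcnip2, a partner of Kv4 channels with a VTA median of 229 and a NAc median of 8787. Kcnj4 had 9.33 to 165 normalised reads in VTA, against 4240.1 to 6096 in NAc.

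Of 30 axon guidance genes 10 were higher and 14 lower in VTA, 2 and 7 of them by a log2 fold change of at least 1, with a median of -0.01. Efnb2 and Plxnd1 were the most reduced in VTA, with log2 fold changes of -3.05 and -2.44. Dcc and Robo2, receptors for netrin and Slit, had differences of 0.01 ± 0.11 and -0.03 ± 0.09. Retinoic acid genes were opposed. The synthesis enzyme Aldh1a1 and the degrading enzyme Cyp26b1 were higher in VTA by 5.47 and 2.40, and the receptors Rarb and Rxrg and the binding protein Crabp1 were lower, with log2 fold changes of -4.18, -4.11 and -4.55. In all, 4 of 12 tested retinoic acid genes were higher and 7 lower, 3 and 6 of them by a log2 fold change of at least 1, with a median of -0.82.

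Myelin genes were higher in VTA, 16 of 16, 15 of them by a log2 fold change of at least 1, with a median of 1.67. Mbp, myelin basic protein, had 193602 to 280541 normalised reads in VTA, against 55668 to 79576 in NAc and a PFC median of 18196. It took 0.757% of all normalised reads in VTA and 0.221% in NAc. Mobp, a further myelin protein, was higher by 1.83. Of 9 tested genes of oligodendrocyte precursors and their lineage 7 were higher, 5 of them by a log2 fold change of at least 1, with a median of 1.01. The 7 included other markers of precursors, while Pdgfra and Gpr17 differed by 0.09 and 0.06 and did not pass. Pdgfra passed without NAc replicate 2 (0.15, adjusted p = 0.0253). Both passed without the 3 NAc libraries whose adult label repeats the sex (adjusted p = 0.0395 and 0.0314). Astrocyte genes moved both ways, with 11 of 14 higher and 3 lower, 8 and 2 of them by a log2 fold change of at least 1, and a median of 1.34. Agt, angiotensinogen, was higher by 4.64 and Slc6a11, a GABA transporter of astrocytes, by 2.32, while the glutamate transporters Slc1a2 and Slc1a3 were lower, with log2 fold changes of -0.72 and -1.33. Crym, listed as an astrocyte gene of the striatum, was the third lower member.

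Microglia genes were lower in VTA, 11 of 12, none by as much as a log2 fold change of 1, with a median of -0.50. P2ry12, a purine receptor of resting microglia, had 577 to 724 normalised reads in VTA, against 1109 to 1457 in NAc (-0.94 ± 0.07). Endothelial and mural genes were higher in 10 of 12 cases, with a median of 0.38, and Acta2, smooth muscle actin, was the only member past 1. The call of Acta2 was lost without the 3 NAc libraries whose adult label repeats the sex (0.62, adjusted p = 0.229). All 5 tested blood genes were higher in VTA, with a median of 0.77 and overlapping ranges in every one. Choroid plexus and ependymal genes had 3 of 6 tested higher and 2 lower, each by a log2 fold change of at least 1, with a median of 0.72. The summed level of all 12 lay between 1141 and 1894 in VTA libraries other than replicate 3 and at 10519 in that library, against 1158 to 1814 in NAc. All 20 tested genes of oxidative phosphorylation were higher in VTA, none by as much as 1, with a median of 0.40. Atp5b, an ATP synthase subunit, had 37004 to 45724 normalised reads in VTA, against 28221 to 32837 in NAc. Without VTA replicate 3 the count was 19, Cox6a1 being lost at an adjusted p of 0.0504. The call of Cox6a1 was also lost without NAc replicate 2, 3 or 4 or VTA replicate 1, 4 or 6. Its adjusted p in those fits ran from 0.0504 to 0.0648. The part that different shares of these cell types played in the neuronal differences was not tested.

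**Figure D4:**
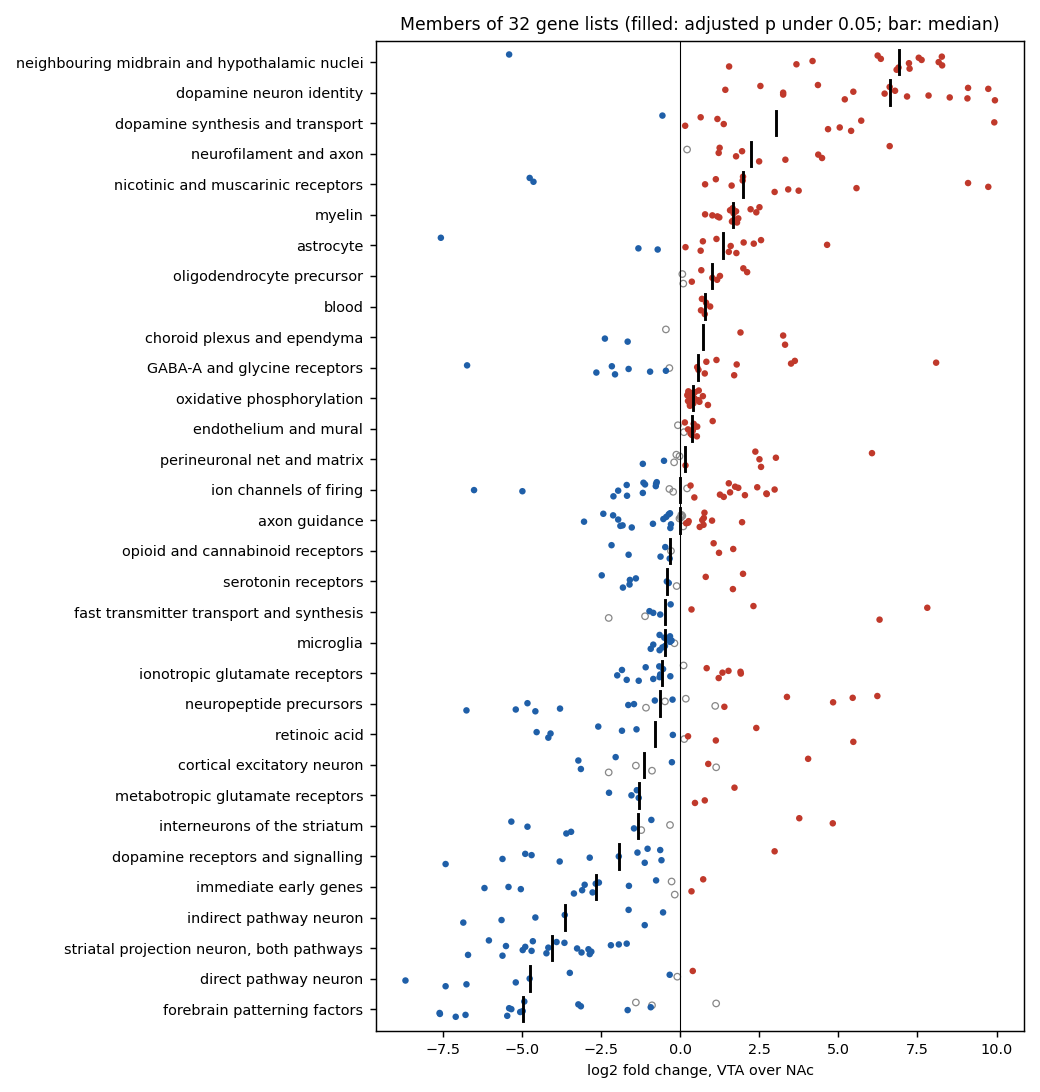
Log2 fold change, VTA over NAc, of every tested member of 32 gene lists, ordered by the list median (black bar). Filled points passed at an adjusted p under 0.05 (red higher, blue lower in VTA) and open points did not. Dopamine neuron identity genes, with a median of 6.62, lie near the top with genes of neighbouring nuclei, and forebrain patterning factors, with a median of -4.99, lie at the bottom.

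Immediate early genes, which neurons transcribe within minutes of activity, were lower in VTA. Of 15 genes 11 were lower, 10 of them by a log2 fold change of at least 1, and 2 were higher, with a median of -2.68. Egr3, a zinc finger factor, had 11.6 to 83.0 normalised reads in VTA, against 1134 to 2079 in NAc and a PFC median of 2419 (-6.20 ± 0.42). Egr1 had 559.8 to 1014 in VTA, against 4550.5 to 8998 in NAc. Npas4, Fosb and Nr4a1 were lower, with log2 fold changes of -3.03, -3.37 and -2.68. Fos itself had 294 to 558 in VTA, against 252 to 683 in NAc, and did not pass (-0.18 ± 0.23, adjusted p = 0.484). Jun and Ier2 were the higher members, by 0.35 and 0.72, with overlapping ranges.

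The regional differences were also present in the stressed female groups, which share no library with the standard controls. A fit over 44 female libraries gave 5780 genes higher and 5283 lower in VTA in ELS P10-20 STVS mice, 5626 and 5106 in ELS P10-20 controls, and 5667 and 5114 in standard STVS mice. Of the 1513 genes higher in VTA by a log2 fold change of at least 1 in standard controls, 1512, 1506 and 1507 were called higher in those 3 groups in the same order. Of the 1275 lower genes, 1268, 1266 and 1272 were called lower. All 30 genes of largest difference were called in the same direction in each group. Slc6a3 had VTA medians of 34830, 35993 and 40722 normalised reads in the 3 stressed groups and 26813 in standard controls, beside NAc medians of 18.2, 20.3, 17.0 and 18.3.

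Whether the VTA to NAc difference changed with stress was asked by an interaction term for each group, and no gene of 14000 passed in any of the 3 (0% each, smallest adjusted p of 0.948 for ELS P10-20 STVS, 0.844 for ELS P10-20 control and 0.430 for standard STVS). At an unadjusted p under 0.05 limma gave 636, 748 and 573 genes. On the recovered reads of 42 libraries edgeR also called 0 in each, with 1249, 852 and 617 at an unadjusted p under 0.05. That fit left out NAc replicates 3 and 6 of the ELS P10-20 STVS mice, whose value of 1 read was too near 1 to recover reads. A p that misses the threshold does not show that the difference was the same in all groups. Of the 30 genes, the largest interaction estimates were 1.36 for Isl1 in ELS P10-20 controls and 1.36 for Chrnb3 in ELS P10-20 STVS mice. In those STVS mice Chrnb3 had a VTA median of 3193 and a NAc median of 0.960, while standard controls had medians of 2898 in VTA and 2.15 in NAc. Among standard STVS mice, the libraries numbered 3 held the least Xist of their group. The VTA library had 6152 normalised reads, against a group median of 13782. The NAc library had 100.9, against a group median of 36333. Ddx3y reached at most 5.26 normalised reads in the VTA and 4.38 in the NAc libraries of standard STVS mice. Without the 2 standard STVS libraries numbered 3, VTA standard control 3 and NAc ELS P10-20 STVS 1, the interactions again called 0 genes.

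**Figure D5:**
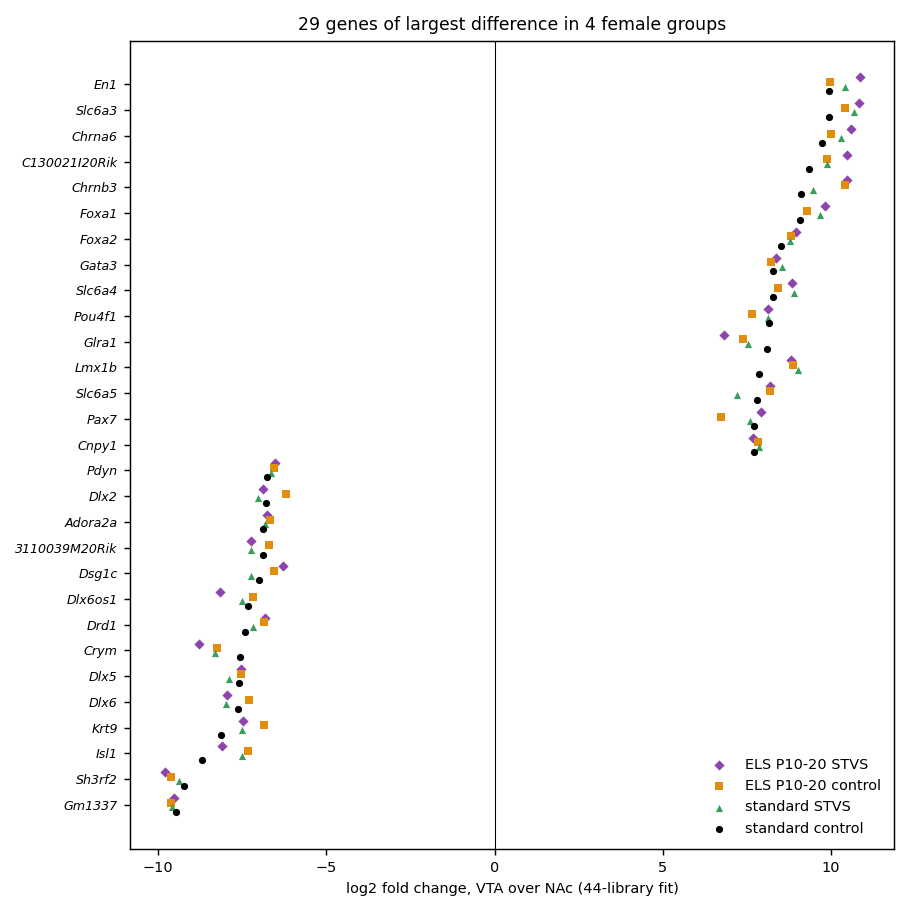
Log2 fold change, VTA over NAc, of 29 of the 30 genes of largest difference in 4 groups of female mice, from a fit over 44 libraries. In every group the 15 genes higher in VTA lie right of 0 and the 14 lower in VTA lie left of it.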

How the data were processed

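RNA was measured by poly-A sequencing of punched tissue, 1 mouse per library, with an unstranded kit per the labels' protocols. HISAT, HTSeq and build mm10 are named, without versions, in the submitters' processing notes. The deposited values are signal: gene counts that the authors divided by 1 factor per library, over 32421 genes, of which 27164 have a symbol. In 100% of values in the libraries where the step could be told from rounding, a value was a whole multiple of 1 read within 0.001, so reads were recovered and library totals taken from them. The table holds 64 columns not used here. Tables of male libraries were normalised separately and were not used here.

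The 14000 genes of highest mean over the 12 libraries were tested on log2(value + 1) with limma 3.58.1 (trend, robust, R 4.3.3), with Benjamini-Hochberg adjustment over all 14000 and a threshold of 0.05. A fold change is VTA over NAc on that scale and understates that of low genes. Calls were repeated on recovered reads with edgeR 4.0.16. The limma and edgeR fits of the 12 libraries were tested on simulated counts, with far fewer changed genes than were called here. The fit over 44 libraries and its interactions were not tested in that way. Other female groups entered a fit over 44 libraries with 1 coefficient per group and 3 interaction contrasts. Over 30 pairs of libraries of 1 region no pair agreed within sampling noise. Replicate numbers did not pair the libraries. Gene positions and promoters are RefSeq's (GRCm38.p6).

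The members and the 33 gene lists were chosen with earlier results of these data known. Genes named are the 15 of largest difference each way without overlap, those at 100 or more normalised reads in every library of 1 region and at most 5 in the other, the 8 of largest spread per region, abundant genes, label checks, and list members of largest difference or against their list. Further list members were named for their known role after their values were seen. The protocol text speaks of male mice where these samples are labelled female, and the labels were followed. Some list members are not reported here by name.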

Additional observations from a re-analysis of the deposited data

Results flagged for a closer look

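In 49 of 366 sets of 6 libraries (a named gene in a region), the highest or the lowest library lay apart from the other 5 by a share of the range above Dixon's 95% critical value for 6 samples. A set whose highest level was under 10 normalised reads stayed among the 366 but could not be flagged. Chance gives such a gap in about 1 in 20 sets, and genes of 1 library are not independent. Values in parentheses are normalised reads of the library named.

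VTA replicate 3 was high in 23 of the 49 sets. It was high in 3110039M20Rik (17.9), Dlx6os1 (55.7), Gm1337 (88.3), Crym (660.0), Dlx2 (13.7), Pax5 (256), Npy2r (301) and Tbr1 (109). It was also high in Ttr (8281), Chat (265), Chrm1 (676), Chrm4 (94.6), Drd5 (82.0), Egr3 (83.0), Kcnip2 (575) and Lhx6 (72.5), and in Neurod2 (271), Neurod6 (434), Npy (116), Slc17a7 (3419), Slc5a7 (762), Ddx3y (145) and Ppp1r1b (655).

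NAc replicate 5 was high in 6 genes that were higher in VTA, namely C130021I20Rik (19.7), Slc6a3 (192), Chrna6 (37.4), En1 (13.8), Slc6a4 (25.6) and Tph2 (40.3).

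NAc replicate 2 was high in Agt (754), Gabrq (566), Glra3 (159), Gria4 (2777), Grin2d (776), Lhx5 (23.3), Lhx6 (1224), Oprl1 (1534), Pdgfra (2570.4), Slc6a11 (7956) and Slc6a9 (892). It was low in Efnb2 (3292), Emx2 (153) and Htr6 (307).

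Slc6a5 was high in VTA replicate 4 (3351). Acta2 was high in VTA replicate 1 (1554). Adcyap1 was high in NAc replicate 6 (233). Egr3 was high in NAc replicate 1 (2079). Maob was low in VTA replicate 6 (880.5). Sst was low in VTA replicate 6 (535).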

How the results depend on the processing

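The counts of genes higher and lower in VTA held within 1.5 times under another pseudocount (0.1 or 10), a mean of at least 100 normalised reads, quantile normalisation, equal library totals, edgeR on recovered reads (5675 higher and 5707 lower), a fit on 44 libraries, and without the 3 NAc libraries whose adult label repeats the sex. A test against a log2 fold change of 1 called fewer genes, 1012 higher and 913 lower, against 1513 and 1275 in the main fit. Without the filter on low values 29357 genes were tested, and 2815 were higher and 2749 lower in VTA by a log2 fold change of at least 1, since more genes entered. Leaving out each library in turn gave 5822 to 5916 genes higher and 5287 to 5401 lower in VTA, and 1473 to 1563 and 1267 to 1323 with a log2 fold change of at least 1. Libraries with the same replicate number did not deviate together (correlations between -0.041 and 0.136, and 1 of 6 correlated best with its own number), and the replicate block gave 5901 genes higher and 5302 lower, 1509 and 1275 with a log2 fold change of at least 1. Of 176 named and tested genes, none that was called in the main fit or the alternative changed direction under 22 settings. A change of sign in a gene called in neither was not counted. Under at least 1 setting 11 called genes lost their call and 7 others gained one, and the cause was not tested. Leaving out 4 libraries that stood apart, chosen after seeing the data, gave 5685 genes higher and 5246 lower in ELS P10-20 STVS mice, 5613 and 5101 in ELS P10-20 controls, and 5486 and 4923 in standard STVS mice. Depth limits genes of few reads: below a mean of 43.9 normalised reads no gene was tested.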
